A study of Mus musculus with 38 samples.

Results

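The 34 genes described here encode enzymes of cholesterol and fatty acid synthesis and the proteins that set their transcription, out of 20018 genes with a symbol on the arrays. They were taken as a list by name, drawn up with earlier results of these data known, and comprise 17 enzymes of sterol synthesis, 6 genes of regulation and sterol transport, and 11 genes of fatty acid synthesis and modification. Each gene was read on its brightest probe of 1 to 3, where the full set held 49 probes. All values are log2(Cy5/Cy3), the log2 ratio of a tissue to a common reference RNA, so they compare 1 gene between samples and not 1 gene with another.

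The RNA came from lung and forestomach of male MutaMouse, a transgenic mutation reporter strain, aged about 10 weeks. Mice were gavaged daily with dibenz(ah)anthracene (DBahA), a polycyclic aromatic hydrocarbon, in olive oil for 28 days, and organs were collected 72 h after dosing ended. D0 mice received olive oil only, and D1, D2 and D3 mice received DBahA at 6.25 mg, 12.5 mg or 25 mg per kg body weight each day. Lung was measured in 5, 5, 4 and 5 mice of D0 to D3 and forestomach in 5, 5, 4 and 4 mice. The 38 arrays carried tissue RNA in Cy5 and universal mouse reference RNA from 11 cell lines in Cy3, with no dye swap. RNA was taken from random sections of each organ, and both organs came from the same numbered mice.

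Sterol synthesis runs from acetyl-CoA through mevalonate, isoprenoid diphosphates and squalene to lanosterol, and then through a series of demethylation, reduction and isomerisation steps to cholesterol. Fatty acid synthesis starts from citrate-derived acetyl-CoA, is committed by acetyl-CoA carboxylase, and is followed by elongation and desaturation. Both branches are transcribed under SREBP factors, which SCAP escorts out of the endoplasmic reticulum and INSIG proteins hold back when sterols are plentiful. In lung these pathways feed surfactant lipid made by type 2 alveolar cells. In stratified squamous epithelium they feed the lipids of the outer barrier layers.

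The tissue labels were checked against marker genes. The mean log2 ratio of 6 type 2 alveolar cell markers lay between 4.77 and 5.74 on the lung arrays and between -0.56 and 0.47 on the forestomach arrays. The mean of 6 squamous epithelium markers lay between 3.36 and 4.64 on forestomach arrays and between -0.57 and -0.26 on lung arrays. Markers of glandular stomach were high on 13 of 19 forestomach arrays, where the mean of 9 genes lay between 4.83 and 6.90, and low on the other 6, where it lay between 0.37 and 0.94. The 2 arrays labelled as forestomach of D3 mouse 18 fell on both sides (0.94 and 6.51), and they were averaged to 1 replicate. No forestomach array analysed here is labelled mouse 20, so whether both arrays came from mouse 18 was not settled, and the D3 forestomach values rest on 4 mice as labelled. Fat cell markers (5 genes) ranged from 0.03 to 3.72 in forestomach, where none of these genes was well above background on every array, and from 0.58 to 2.20 in lung. Heart muscle markers (6 genes) ranged from -0.17 to 3.00 in lung. In whole tissue, fewer cells of a type and less RNA per cell cannot be told apart.

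The largest contrast was between the organs. In D0 mice, 24 of the 34 genes differed between lung and forestomach (limma, adjusted p at most 0.05 over all 55681 probes and a fold change of at least 1.5), and 20 of them were lower in lung. For comparison, 16.2% of all probes met the same rule, and 32.5% of the 25906 probes that were well above background on at least 19 of the 38 arrays, 14.9% lower and 17.6% higher in lung. Over all probes, 7.6% were lower and 8.62% higher. Every sterol synthesis enzyme had a lower mean in lung, 16 of 17 passed the test, and the median log2 difference was -1.45. The fatty acid genes divided, with 4 higher and 2 lower in lung. Among the regulators, 2 of 6 differed. The median log2 difference was -1.03 over the 34 genes and 0.00 over the probes well above background. The values of the 5 mice did not overlap between the tissues for 18 genes that were lower in lung and 4 that were higher, where 8.88% and 9.93% of all probes met these conditions.

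**Figure D1:**
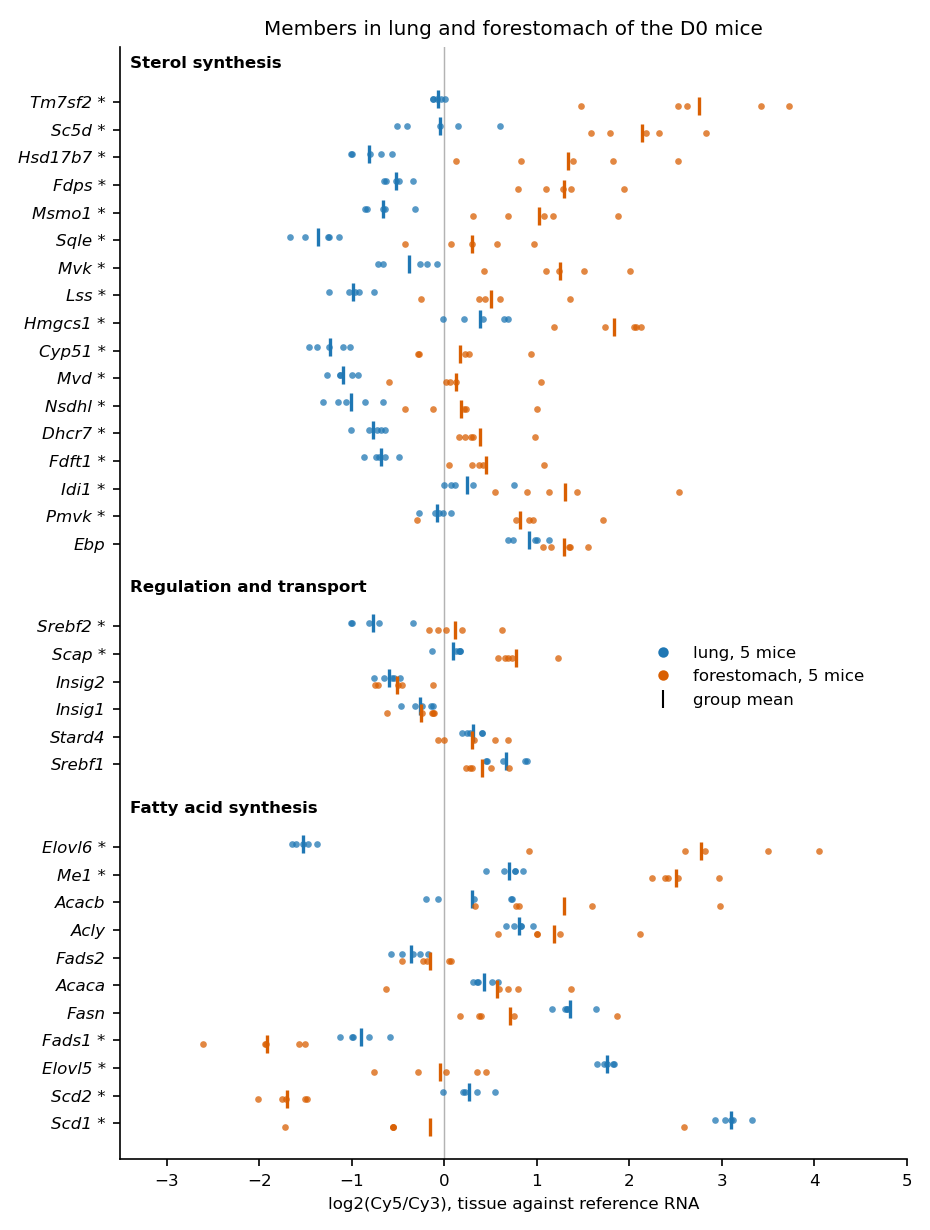
The log2(Cy5/Cy3) of each of the 34 genes on the x axis in lung (blue) and forestomach (orange) of the 5 D0 mice, with a vertical tick at each group mean and an asterisk at each gene that passed the test. All 17 sterol synthesis genes have their lung mean to the left of their forestomach mean, and Scd1, Scd2, Elovl5 and Fads1 have it to the right.

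The size of these differences depended on how the arrays were scaled. With each array centred on its median in place of loess, 7 of the 34 genes passed, 4 higher and 3 lower in lung (Scd1, Scd2, Elovl5, Fads1, and Elovl6, Tm7sf2, Hsd17b7), beside 8.18% of all probes, and the median difference of the 34 was -0.34. Under this scaling the probes well above background had a median difference of 0.32. All 24 genes kept their sign, and all 17 sterol genes lay below the median of the probes well above background under either scaling.

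Within the mevalonate segment, Hmgcs1, which condenses acetyl-CoA units ahead of mevalonate, was lower in lung by a log2 difference of -1.45 (limma, SE 0.16, adjusted p = 3.59e-09). Mevalonate kinase Mvk, phosphomevalonate kinase Pmvk and mevalonate diphosphate decarboxylase Mvd followed at -1.64, -0.89 and -1.22. The isomerase Idi1 was at -1.06. Pmvk and Idi1 passed the test although their lung and forestomach values overlapped. Farnesyl diphosphate synthase Fdps was among the 5 genes that were lowest in lung. Its lung values were -0.49, -0.34, -0.52, -0.62 and -0.65 in D0 mice 1 to 5, and its forestomach values were 0.80, 1.94, 1.10, 1.28 and 1.37. The groups were clearly apart, with a difference of -1.82 (limma, SE 0.17, adjusted p = 1.22e-10).

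Squalene synthase Fdft1, squalene epoxidase Sqle and lanosterol synthase Lss were lower in lung by -1.14, -1.66 and -1.49 on the log2 scale, and the lanosterol demethylase Cyp51 by -1.41. Cyp51 was well above background on 17 of 19 lung arrays, and the other sterol genes on every array. Further along, the methylsterol monooxygenase Msmo1 was at -1.69, the decarboxylating dehydrogenase Nsdhl at -1.19 and the final reductase Dhcr7 at -1.17. The sterol isomerase Ebp differed least of the 17, by -0.39 (limma, adjusted p = 0.00455), below the fold threshold, and its sign turned under median centring (0.11).

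Tm7sf2, the sterol reductase that acts after Cyp51, had the largest difference of the sterol enzymes. Its lung values were tightly grouped at 0.01, -0.04, -0.08, -0.12 and -0.12 in D0 mice 1 to 5, whereas its forestomach values were 1.48, 3.73, 2.53, 2.62 and 3.43. Every forestomach value was above every lung value, and the difference was -2.83 (limma, SE 0.35, adjusted p = 4.89e-08). The second probe of Tm7sf2 gave -2.03 and also passed. The listed genes had 15 further probes, of which 13 kept the sign of the brightest probe between the organs at D0 and 6 passed. Among the sterol enzymes, the second probes of Mvk (-1.56) and Pmvk (-0.89) passed. Those of Nsdhl (-0.46) and Fdft1 (0.17) did not. The Nsdhl probe was well above background on 23 of 38 arrays and the Fdft1 probe on 0.

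Sc5d introduces the C5 double bond near the end of the pathway. Its values in lung of D0 mice 1 to 5 were 0.15, -0.05, 0.61, -0.40 and -0.51, and in forestomach 1.58, 2.83, 2.18, 1.80 and 2.33. The tissues did not overlap, and the difference was -2.18 (limma, SE 0.26, adjusted p = 3.42e-08). Hsd17b7, the ketosteroid reductase of sterol demethylation, was at -0.80, -1.01, -0.57, -0.68 and -0.996 in lung of the same mice. In forestomach it was at 0.13, 2.52, 0.83, 1.39 and 1.82. Mouse 1 gave the lowest forestomach value and mouse 2 the highest, and all were above the lung values, with a difference of -2.15 (limma, SE 0.33, adjusted p = 3.24e-06). Its second probe gave -1.79 and passed.

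Because the sterol genes lay on the same side together, their promoters were examined for letters bound by shared factors. RefSeq promoters (GRCm38.p6) were listed for 27 of the 34 genes, and the 250 bases before the start were searched on both strands. The motif TCACNCCAC, a form of the sterol regulatory element, was found in 1 of the 27 genes (Hmgcs1), against 1.22% of all 27025 genes listed. CCAAT was found in 14 of 14 sterol synthesis genes, 4 of 5 regulation and transport genes and 4 of 8 fatty acid genes, against 37.5% of all genes. The E-box CACGTG was found in 6 of 27, against 6.86%. A gene with several listed starts was counted where any of them held the letters. No motif searched contains another, and a match is a description of sequence and not of binding. The promoters of Hmgcs1, which holds the sterol regulatory element, of Tm7sf2 and Hsd17b7, the sterol genes whose call also held under median centring, and of Elovl6, the gene with the largest difference and none of the 3 motifs, are shown 5′ to 3′ with motif matches in capitals.
Hmgcs1, chr13:119690101-119690350, + strand: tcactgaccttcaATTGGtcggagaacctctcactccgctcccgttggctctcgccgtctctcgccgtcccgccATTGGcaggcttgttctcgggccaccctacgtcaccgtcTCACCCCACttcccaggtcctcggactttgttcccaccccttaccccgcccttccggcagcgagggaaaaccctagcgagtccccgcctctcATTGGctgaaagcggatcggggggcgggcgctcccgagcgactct
Tm7sf2, chr19:6067851-6068100, - strand: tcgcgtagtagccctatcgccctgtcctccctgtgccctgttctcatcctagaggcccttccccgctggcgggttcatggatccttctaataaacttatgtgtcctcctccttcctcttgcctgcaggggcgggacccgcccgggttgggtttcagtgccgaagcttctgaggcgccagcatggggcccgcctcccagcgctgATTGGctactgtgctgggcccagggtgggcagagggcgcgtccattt
Hsd17b7, chr1:169969206-169969455, - strand: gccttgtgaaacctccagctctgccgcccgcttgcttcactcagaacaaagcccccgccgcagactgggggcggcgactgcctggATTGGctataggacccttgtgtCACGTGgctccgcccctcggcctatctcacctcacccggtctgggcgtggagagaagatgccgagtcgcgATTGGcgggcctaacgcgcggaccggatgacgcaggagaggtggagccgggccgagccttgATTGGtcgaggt
Elovl6, chr3:129532136-129532385, + strand: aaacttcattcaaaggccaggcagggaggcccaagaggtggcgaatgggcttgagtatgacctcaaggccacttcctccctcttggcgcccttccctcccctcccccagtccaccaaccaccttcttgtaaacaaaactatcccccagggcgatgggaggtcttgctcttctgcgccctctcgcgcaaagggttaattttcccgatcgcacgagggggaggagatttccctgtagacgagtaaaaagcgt

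Of the 6 genes of regulation and transport, 2 passed, a share close to the 32.5% of probes well above background that did. Srebf2, the SREBP that chiefly drives sterol genes, was lower in lung by -0.89 (limma, SE 0.15, adjusted p = 2.09e-05). Its escort Scap was lower by -0.68 (adjusted p = 3.25e-04). For both genes the 5 lung values lay below the 5 forestomach values. Under median centring neither passed, with Srebf2 at -0.25 and Scap at -0.08. Srebf1, the SREBP tied mainly to fatty acid genes, was at 0.26 (95% interval -0.04 to 0.56, adjusted p = 0.205). The retention proteins Insig1 and Insig2 were at -0.01 (-0.25 to 0.22) and -0.09 (-0.32 to 0.14), and the sterol carrier Stard4 at 0.01 (-0.29 to 0.30). The intervals of these 4 genes lay within a 1.5-fold change in either direction. The second probe of Srebf2 differed by -0.29 and did not pass (adjusted p = 0.200).

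The fatty acid genes showed the widest range, from the lowest to the highest difference of the 34. Elovl6 elongates saturated and monounsaturated C16 chains. It was at -1.53, -1.65, -1.47, -1.61 and -1.37 in lung of D0 mice 1 to 5 and at 0.92, 4.06, 2.599, 2.82 and 3.50 in forestomach. The gap between the lowest forestomach value and the highest lung value was wide, and the difference was -4.30 (limma, SE 0.41, adjusted p = 2.50e-10), a 19.7-fold lower ratio in lung. Me1, the cytosolic malic enzyme that supplies NADPH, was lower by -1.81 (SE 0.12, adjusted p = 2.66e-14), and its 2 further probes gave -1.61 and -2.44.

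Scd1 and Scd2 are stearoyl-CoA desaturases, which place the double bond of oleate and palmitoleate. Scd1 was at 3.098, 3.12, 3.33, 3.04 and 2.93 in lung of D0 mice 1 to 5 and at -1.72, 2.59, -0.55, -0.55 and -0.56 in forestomach. The lung values were close to each other, whereas forestomach of mouse 2 stood apart from the other 4 mice and still lay under every lung value. The difference was 3.26 (limma, SE 0.60, adjusted p = 6.03e-05), and it was 3.95 without forestomach of mouse 2 and 2.08 when only the 2 D0 forestomach arrays with low glandular markers (mice 2 and 5) were used. Scd2 was at 0.55, 0.22, 0.35, 0.20 and -0.01 in lung and -1.76, -1.48, -1.50, -1.71 and -2.01 in forestomach, with no mouse out of place. Its difference was 1.96 (limma, SE 0.16, adjusted p = 3.04e-12).

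Elovl5, the elongase of polyunsaturated chains, was at 1.83, 1.76, 1.72, 1.65 and 1.84 in lung and at -0.76, 0.36, 0.02, -0.28 and 0.46 in forestomach of D0 mice 1 to 5. All lung values were above all forestomach values, by a mean of 1.80 (limma, SE 0.18, adjusted p = 5.67e-10). Fads1, the delta-5 desaturase, was at -0.99, -0.81, -0.59, -0.99 and -1.13 in lung and at -2.61, -1.94, -1.57, -1.51 and -1.93 in forestomach. Its groups did not overlap, and the difference was 1.01 (limma, SE 0.15, adjusted p = 2.31e-06).

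The enzymes that build the chain itself did not pass. Fatty acid synthase Fasn was at 0.64 (95% interval 0.12 to 1.16, adjusted p = 0.0581), the citrate lyase Acly at -0.38 (-0.79 to 0.03), and the acetyl-CoA carboxylases Acaca and Acacb at -0.14 (-0.68 to 0.40) and -0.997 (-1.86 to -0.13, adjusted p = 0.0814). Fasn was called in 7 of the 26 alternatives, among them both fits with mouse as a replicate block. Fads2, the delta-6 desaturase, was at -0.21 (-0.44 to 0.02), with 13 of 19 lung and 5 of 19 forestomach arrays well above background.

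Over the 18 mice with both organs measured, the same-mouse difference was below 0 in every mouse for 19 genes and above 0 in every mouse for 4, Scd1, Scd2, Elovl5 and Fads1. Of all probes, 9.35% were lower and 10.7% higher in lung of every mouse, and of those well above background 17.4% and 21.1%. The 19 genes were 16 of the 17 sterol enzymes, Srebf2, Elovl6 and Me1. Pmvk was lower in lung in 17 of 18 mice. The same-mouse difference of Elovl6 ran from -5.70 to -2.42 and that of Tm7sf2 from -4.17 to -1.47. Scd1 ran from 0.02 to 4.82, so that in 1 mouse the organs were almost level. Scap was lower in 17 mice, Srebf1 higher in 17, and Insig2 and Stard4 were lower in 9 and higher in 9. Each mouse had both organs on the same slide, except for the second forestomach array of mouse 18, which lay on slide 5 with the lung of mouse 20.

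Whether the glandular stomach content moved with these genes was measured across the forestomach arrays. On the 6 arrays with low glandular markers, the median was higher than on the other 13 arrays for 16 of 17 sterol genes and 8 of 11 fatty acid genes, and for 2 of 6 regulators, and for none of the 34 genes did the sets separate completely, as they did for 0.771% of all probes and 1.29% of those well above background. Hmgcs1 was the exception among the sterol genes, with medians of 1.68 and 1.84. With the low-gland forestomach arrays alone, 25 genes differed between lung and forestomach at D0, 23 of the 24 above along with Acaca (-0.66) and Acly (-0.87), beside 18.3% of all probes. At D0 these arrays came from mice 2 and 5 only. Those mice had the highest and second highest D0 forestomach values of Elovl6, Tm7sf2, Hsd17b7, Acaca and Acly. The difference grew for Elovl6 (-5.31), Tm7sf2 (-3.65) and Hsd17b7 (-2.99), and Scap (-0.56) dropped below the fold threshold. The part of glandular tissue in the single values was not tested further.

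Variation between mice was much wider in forestomach than in lung. The mean of the 17 sterol genes ranged from 0.39 to 1.78 over the 18 forestomach mice and from -0.70 to -0.31 over the 19 lung mice. D0 mouse 2 had the highest forestomach mean and the highest value of all mice for 13 of the 17 genes. D0 mouse 1 (mean 0.39) and D2 mouse 12 (0.43) had the lowest means, and each had the lowest value for 7 genes. These 2 mice also had the lowest squamous marker means (3.44 and 3.36) and high glandular markers (6.90 and 5.84). D1 mouse 6, with the highest squamous mean (4.64), had the third highest sterol mean (1.43). D0 mouse 2, highest in sterol mean, had a squamous mean of 4.21. D0 mouse 5 (4.26) and D2 mouse 15 (4.22) were above it in squamous mean, with sterol means of 1.03 and 1.10. A link between the squamous and sterol means was not tested. The range over forestomach mice was 3.14 for Elovl6, 2.92 for Tm7sf2 and 2.51 for Hsd17b7, but 0.55 for Ebp.

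**Figure D2:**
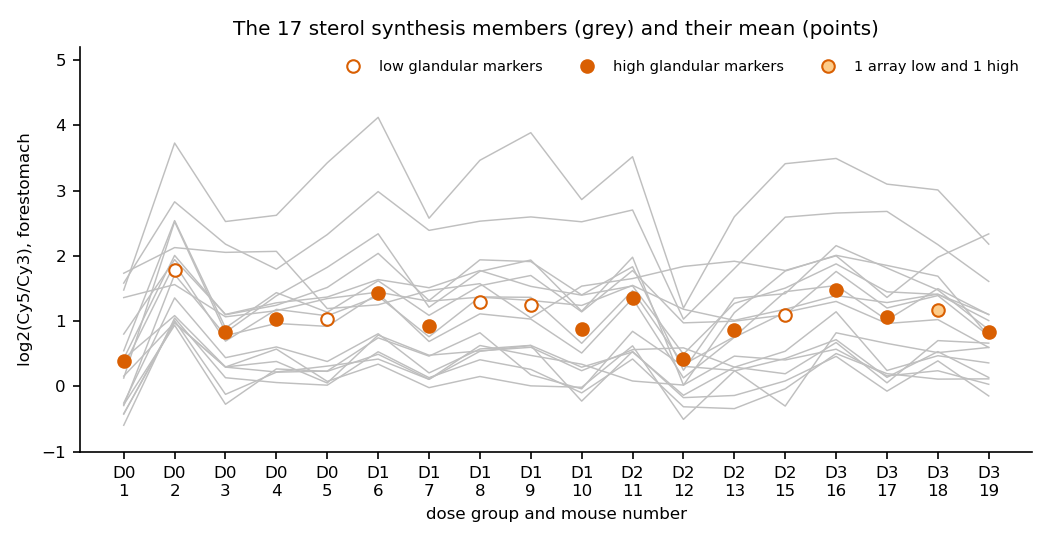
The log2(Cy5/Cy3) in forestomach on the y axis for each of the 17 sterol synthesis genes (grey lines) and their mean (points), for the 18 mice ordered by dose group and number on the x axis, with fill marking glandular stomach markers as low, high, or 1 array of each. The lines rise at D0 mouse 2 (mean 1.78) and dip at D0 mouse 1 (0.39) and D2 mouse 12 (0.43). The means of the D0 mice span the whole range. Those of the other groups run from 0.88 to 1.43 (D1), 0.43 to 1.35 (D2) and 0.83 to 1.48 (D3).

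The response to DBahA was examined next, in lung first. None of the 34 genes passed at D1, D2 or D3 against D0 (limma), where 0.14%, 0.264% and 0.639% of all probes did. At an unadjusted p under 0.05 there were 4, 2 and 4 genes, against 6.53%, 8.07% and 11.3% of all probes. Among probes well above background the shares were 9.36%, 12.6% and 18.2%. The median log2 difference of the 34 was -0.03, -0.01 and 0.07, beside 0.00 over all probes at each dose. At D3, 21 genes had a higher mean than at D0 and 13 a lower one, whereas all 34 were higher under median centring, where the probes well above background had a median difference of 0.29. The 95% interval lay within a 1.5-fold change in either direction for 31, 31 and 32 of the 34 genes, and within a 2-fold change for all 34 at each dose. The exceptions to the first were Idi1, Hsd17b7 and Scd1 at D1 and D2, and Sc5d and Acacb at D3.

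**Figure D3:**
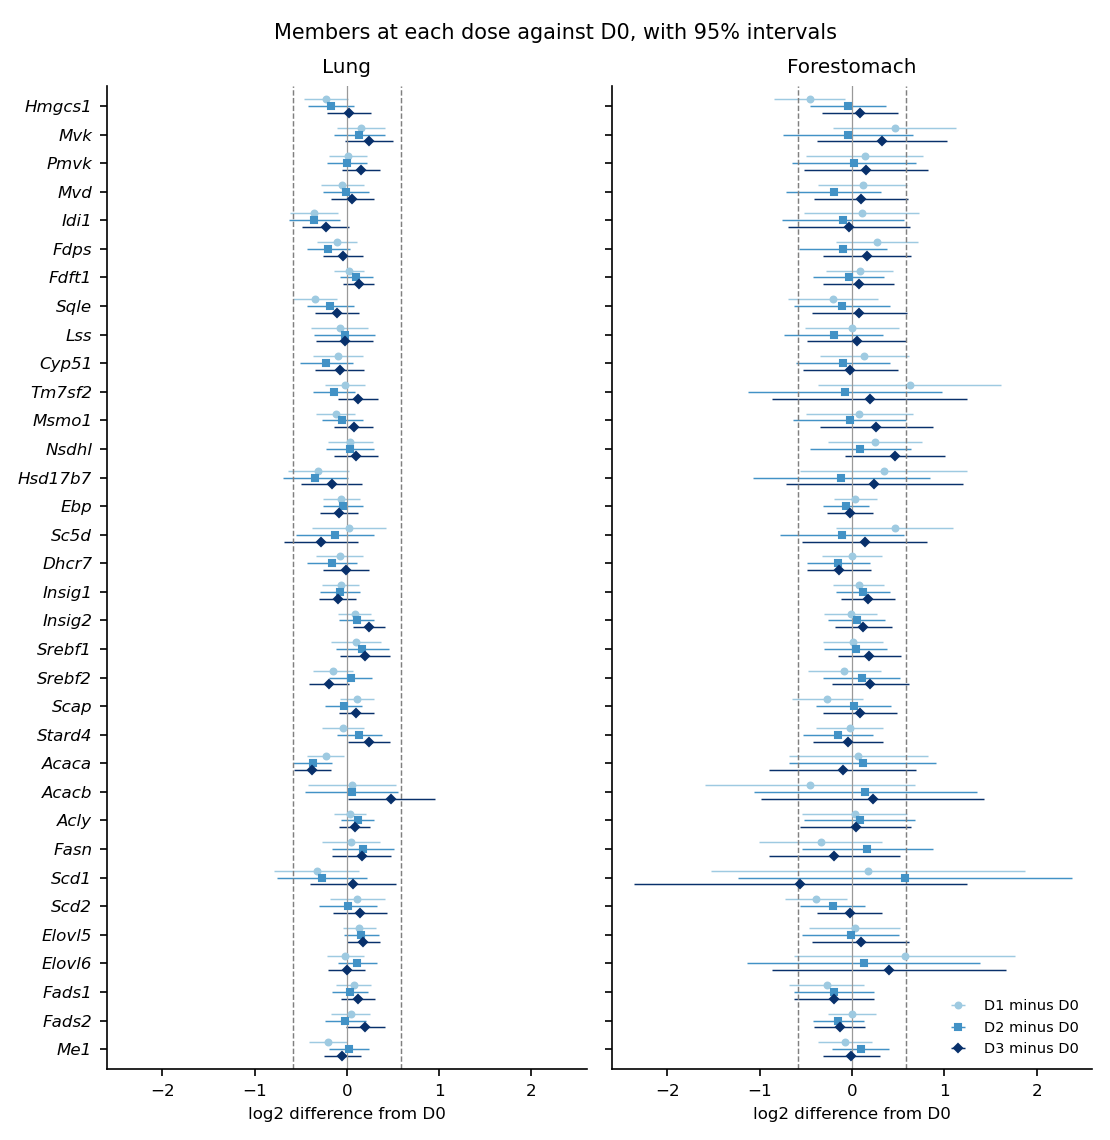
The log2 difference of D1, D2 and D3 from D0 on the x axis for the 34 genes, with 95% intervals from limma, in lung (left) and forestomach (right), and dashed lines at a 1.5-fold change. No gene passed the test, and the intervals are wider in forestomach, where that of Scd1 at D3 runs from -2.37 to 1.25.

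Acaca, the acetyl-CoA carboxylase that commits carbon to fatty acid synthesis, came nearest to a call. It was at 0.58, 0.51, 0.37, 0.36 and 0.31 in lung of D0 mice 1 to 5, and at 0.13, 0.08, -0.04, -0.10 and 0.20 in D3 mice 16 to 20. The D3 values all lay below the D0 values, as they did for 1.05% of all probes. The log2 difference was -0.38 (95% interval -0.58 to -0.18; limma, SE 0.10, adjusted p = 0.0574), under the fold threshold. D2 mice 11, 12, 13 and 15 were at 0.15, 0.02, 0.13 and -0.07, also below every D0 value, as were 1.07% of all probes (-0.37, adjusted p = 0.178), and D1 mice overlapped with D0 (-0.23). The comparisons share the D0 mice. Within the 4 slides that held both groups, D3 minus D0 was -0.44, -0.46, -0.41 and -0.25, and with slide as a block it was -0.37 (adjusted p = 0.0300). Over 22 alternatives the adjusted p ran from 0.0217 to 0.904, and none gave a call, since the fold stayed under 1.5. Under median centring the difference was 0.13, where probes well above background were at 0.29. Acaca had 3 probes. The second gave -0.23 but was well above background on 12 of 38 arrays, and the value of the third is not given here.

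Acacb, the carboxylase of the mitochondrial surface that restrains fatty acid oxidation, had the largest mean difference in lung at D3. Its D0 values were 0.73, 0.32, 0.73, -0.07 and -0.20, and its D3 values were 1.06, 1.26, 0.74, -0.08 and 0.95 in mice 16 to 20. Mouse 19 lay among the D0 mice, so the groups overlapped, and the difference of 0.48 did not pass (limma, SE 0.23, adjusted p = 0.431). Heart muscle markers in the D3 lungs were at -0.17, 2.35, 2.74, 1.96 and -0.04 in the same order, and in D0 lungs between 0.03 and 1.42. Their part in the Acacb values was not tested.

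For the remaining genes of large difference the groups overlapped as well. Sc5d in D3 mice 16 to 20 was at -0.14, -0.27, -0.20, -0.56 and -0.45, against a D0 mean of -0.04 ± 0.45 (SD, n = 5), a difference of -0.28 (adjusted p = 0.644) that turned to 0.14 under median centring. Mvk was at 0.12, -0.28, -0.04, -0.43 and -0.05 at D3, against -0.19, -0.26, -0.07, -0.72 and -0.66 at D0, a difference of 0.24 (limma, adjusted p = 0.492). Stard4 was at 0.40, 0.35, 0.42, 0.78 and 0.80 at D3 and at 0.41, 0.41, 0.28, 0.25 and 0.19 at D0, a difference of 0.24 (adjusted p = 0.404). Mice 19 and 20 were the highest for Stard4. Insig2 was at 0.24 with all 5 D3 mice above the D0 mean (adjusted p = 0.229). Scd1, the gene with the highest lung ratio relative to forestomach, was at 0.07 at D3 (95% interval -0.39 to 0.53).

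**Figure D4:**
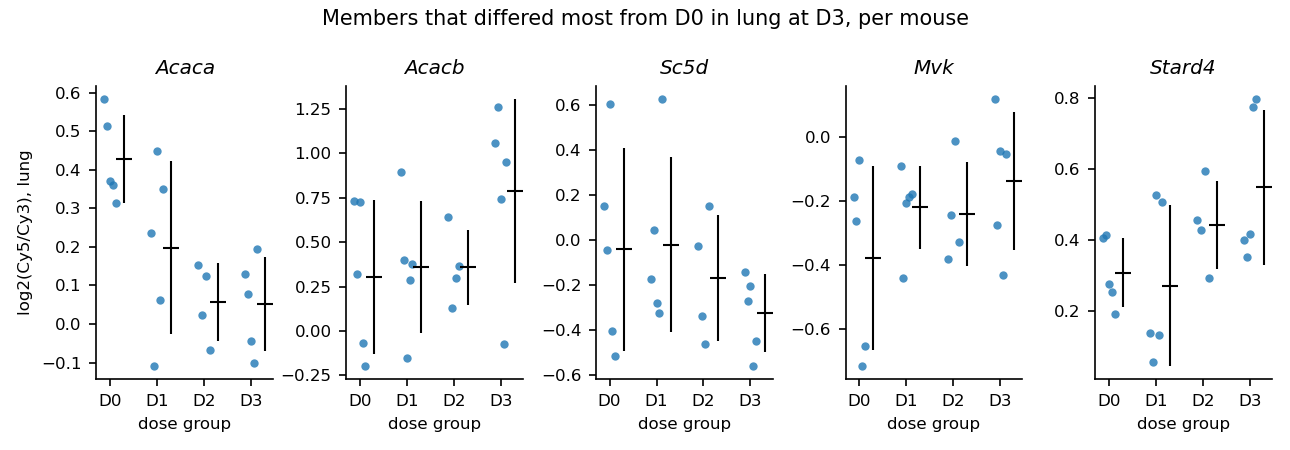
The log2(Cy5/Cy3) in lung on the y axis (a separate range in each panel) for Acaca, Acacb, Sc5d, Mvk and Stard4, with a point for each mouse of D0 to D3 and the mean ± SD beside it in black. The 5 D3 points of Acaca all lie below the 5 D0 points, and the groups overlap in the other panels.

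In forestomach, none of the 34 genes passed at D1, D2 or D3, and no probe of the array did (0% of 55681 at each dose). At an unadjusted p under 0.05 there were 2, 0 and 0 genes, against 4.32%, 3.1% and 3.56% of all probes. The 2 genes at D1 were Hmgcs1 (-0.46) and Scd2 (-0.39), both with an adjusted p of 1.00. The precision was lower than in lung. The median SE of the 34 genes at D3 was 0.24, against 0.11 in lung, and the 95% interval lay within a 1.5-fold change for 13 genes and within a 2-fold change for 27. For the other 7 genes the interval reached a 2-fold change.

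Of the 17 sterol enzymes in forestomach, 14, 2 and 13 had a mean above that of D0 in the D1, D2 and D3 mice, with median differences of 0.11, -0.10 and 0.10. The direction at D2 turned with the scaling. All 34 genes were higher at D2 under median centring, where the probes well above background had a median difference of 0.47. Of the 17 sterol genes, 5 lay below that median, against 15 with loess. Nsdhl at D3 was at 0.82, 0.66, 0.52 and 0.60 in mice 16 to 19, above -0.42, -0.12, 0.22 and 0.24 of D0 mice 1, 3, 4 and 5 but below 1.01 of D0 mouse 2. The difference was 0.47 (limma, 95% interval -0.08 to 1.01, adjusted p = 1.00). Mvk was at 2.16, 1.81, 1.48 and 0.87 at D3 and at 0.43, 2.01, 1.10, 1.24 and 1.52 at D0, a difference of 0.32. Msmo1 was at 1.55, 1.02, 1.498 and 1.10 at D3 and at 0.31, 1.88, 0.69, 1.18 and 1.08 at D0, a difference of 0.26. The D3 and D0 values overlapped for both genes. With slide as a block the difference was 0.17 for Nsdhl, 0.01 for Mvk and -0.04 for Msmo1.

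Elovl6 was at 3.80, 3.44, 3.14 and 2.33 in D3 forestomach and at 0.92, 4.06, 2.599, 2.82 and 3.50 in D0. The D0 mice spanned all of the D3 values. The difference was 0.40 (limma, SE 0.60), and it was -0.07 without D0 mouse 1 and -0.12 with slide as a block.

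Scd1 gave the widest interval of all. In D3 forestomach it was at -0.32, -0.72, -0.70 and -1.12 in mice 16 to 19, within the D0 range. The mean difference was -0.56 (95% interval -2.37 to 1.25), and it was 0.13 without D0 mouse 2. The high values of Scd1 in forestomach were 2.59 in D0 mouse 2, 2.44 in D1 mouse 8 and 2.86 in D2 mouse 15, while every other mouse lay between -1.72 and 0.34. Fat cell markers were highest in the same 3 mice, at 3.68, 3.04 and 3.72, and D2 mouse 12, which had the fourth highest Scd1 value (0.34), had the fourth highest fat marker mean (2.66). These 3 mice were also among those with low glandular markers. With the fat marker mean as a covariate, the Scd1 difference at D3 was -0.01. The D3 arrays had fat marker means between 0.10 and 0.78, so the slope of that fit was set largely by mice of other dose groups. In lung, Scd1 stayed between 2.15 and 3.84 over a fat marker range of 0.58 to 2.20. Fasn, too, was highest in D2 mouse 15 (1.87) and D0 mouse 2 (1.86) in forestomach. Whether fat in the samples accounts for these values was not tested, and the covariate fit cannot decide it.

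**Figure D5:**
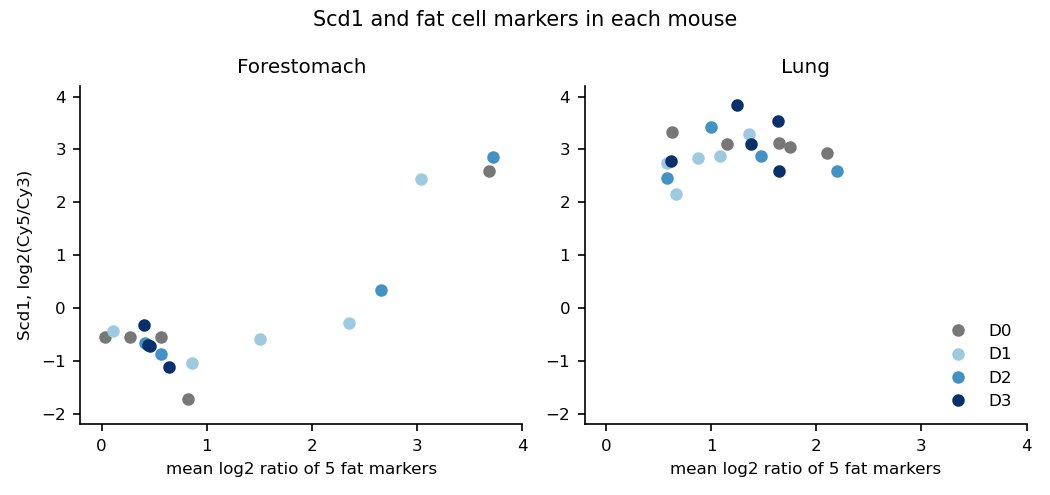
The log2(Cy5/Cy3) of Scd1 on the y axis against the mean log2 ratio of 5 fat cell markers on the x axis, with a point for each mouse (2 arrays averaged for forestomach of mouse 18) coloured by dose group, in forestomach (left, 18 mice) and lung (right, 19 mice). Scd1 exceeds 2.4 in forestomach of 3 mice only, those with fat marker means of 3.04 or more, and lies between 2.15 and 3.84 in all lungs.

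The D3 response of lung minus that of forestomach was tested directly. None of the 34 genes passed, where 0.172% of all probes did, and 0 had an unadjusted p under 0.05, against 5% of all probes. Differences ran from -0.42 for Sc5d to 0.63 for Scd1. The median was -0.05, and for 26 of 34 genes the 95% interval lay within a 2-fold change.

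At D0, 16.2% of all probes differed between lung and forestomach, and 32.5% of those well above background, 14.9% lower and 17.6% higher in lung. Of 24 further genes of lipid synthesis and its control, 12 differed between these organs. The 6 that were higher in lung were the cholesterol exporters Abcg1 (3.29) and Abca1 (1.68), the sterol sensor Nr1h3 (2.53), the SREBP-cleaving protease Mbtps1 (1.02), the geranylgeranyl diphosphate synthase Ggps1 (0.91) and the desaturase Scd3 (0.69). The 6 that were lower were the elongases Elovl7 (-3.00) and Elovl1 (-0.73), the lipase Pnpla3 (-1.74), the citrate carrier Slc25a1 (-1.38), the acyl-CoA synthetase Acsl1 (-1.27) and the thiolase Acat2 (-0.59). All 12 kept their sign under median centring. At D1, D2 and D3 none of the 24 passed in either organ (limma). In lung 4, 6 and 6 of them had an unadjusted p under 0.05, against 6.53%, 8.07% and 11.3% of all probes. Of the probes well above background, 9.36%, 12.6% and 18.2% did. In forestomach there were 0, 0 and 0, against 4.32%, 3.1% and 3.56% of all probes. The lowest adjusted p in lung was 0.0644, for Lpin1 at D3 (limma). For 2 of the 24, every D3 lung value lay above every D0 value, as for 2.05% of all probes. The differences of the 24 genes in lung at D3 ran from -0.28 to 0.96.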

How the data were processed

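The members and gene lists were chosen with earlier results of these data known. Per the labels, each dual-colour Agilent array compared tissue RNA (Cy5) with reference RNA (Cy3). The authors deposited Feature Extraction 10.7.3.1 output, of which the median spot intensity without background subtraction was used. The deposited log10 ratio, which Feature Extraction had background-subtracted and dye-normalized, and the authors' deposited table of log2 ratios (scale unstated, slope 0.990 to 0.998 against the values used here) served as alternatives.

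Following the study's methods, intensities were loess-normalized within arrays with limma 3.58.1 (R 4.3.3). Control spots and outlier spots were left out and replicate spots averaged, leaving 55681 probes. The brightest probe (mean Cy5 over 38 arrays) stood for each gene, named through its RefSeq accession. Lung and forestomach were fitted separately with a mean per dose group, and together for the organ contrasts. limma stood in for the MAANOVA test of the study. Genes were called at a Benjamini-Hochberg adjusted p of at most 0.05 over all probes and a fold of at least 1.5. The fit was tested on simulated data. Named genes are those with the 5 largest differences at D3 in each organ, and the 5 highest and lowest in lung among those called. Both organs came from the same mice per the labels. The correlation of their deviations from group means was above 0.1 in 16 of 18 mice (0.0750 to 0.249). Organs of a mouse mostly shared a slide and unmatched pairs were not compared, so these values cannot test the pairing. Per the file headers the probe annotation is of mm9, and no coordinates from it were used. The number of arrays limits the precision, and p-values measure the spread between these mice.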

Additional observations from a re-analysis of the deposited data

Results flagged for a closer look

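Of 100 sets of 4 or 5 mice examined for a single distant value, 2 held one, a smaller share than the roughly 1 in 20 that chance alone gives. The sets hold different genes in the same mice, so they were not independent, and the shares were not compared in a test. Both distant values were Scd1 in forestomach. D0 mouse 2 was at 2.59, and the nearest mouse of its group was at -0.55. D1 mouse 8 was at 2.44, and the nearest was at -0.29. In both mice the fat cell markers were high (3.68 and 3.04) and the glandular stomach markers low (0.59 and 0.41), and their part in these values was not tested.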

How the results depend on the processing

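The count of 0 genes passing at each dose in lung and forestomach, and for the difference between the organ responses, was the same under every alternative run, 12 in lung and 18 in forestomach besides the fits without 1 sample. Among them were slide, scan day, fat, glandular and squamous marker covariates, the last and the low-gland arrays being chosen after seeing the data. Apart from the low-gland fit, the runs called at most 3 of 55681 probes in forestomach at any dose. Median centring called 0, 5 and 16 probes in lung at D1, D2 and D3. Where so few probes passed, a count of 0 genes says little about stability. The low-gland fit left 2, 2, 1 and 1 forestomach arrays of D0 to D3, with single arrays assumed to vary like the other groups, so its 0 genes say nothing about stability at D2, at D3 or for the difference between responses. It called 118 of 55679 probes at D3 in forestomach, where the full set called 0. The 24 genes that differed between organs at D0 became 7 under median centring, and the cause was not tested. Leaving out 1 sample gave 23 to 25. With mouse as a replicate block, fixed or random, it was 25, and other settings gave 23 to 25. Of the genes given mouse by mouse, Sc5d (-1.40) and Fdps (-1.23) lost their call under median centring. That setting also moved the median of the 34 genes to 0.29, 0.39 and 0.42 in lung at D1, D2 and D3. It moved to 0.63 and 0.81 in forestomach at D2 and D3, and to -0.36 for the difference between responses, where none passed. The median of the probes well above background moved as well, to 0.27, 0.33 and 0.29 in lung. In forestomach at D2 and D3 it was 0.47 and 0.52, and for the difference between responses -0.20. Of the uncalled differences at D3, signs turned for Acaca (0.13) and Sc5d (0.14) in lung and Scd1 (0.17) in forestomach under median centring, and for Elovl6 (-0.12) and Msmo1 (-0.042) in forestomach with slide as a block. Leaving out 1 forestomach mouse gave -0.95 to 0.13 for Scd1 (highest without D0 mouse 2) and -0.066 to 0.72 for Elovl6 (lowest without D0 mouse 1). Fads2 was well above background on 5 of 19 forestomach arrays.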
